A study of Mus musculus with 8 samples.

Results

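Growth factor receptor tyrosine kinases are cell-surface proteins that bind a secreted ligand, pair, phosphorylate one another and recruit adaptors. The adaptors activate phosphoinositide 3-kinase (PI3K) and AKT, AKT phosphorylates tuberin, the product of *Tsc2*, and loss of tuberin's hold on the GTPase RHEB activates the kinase mTOR. In the ventricular-subventricular zone (V-SVZ), the neurogenic niche along the lateral ventricle, FGF and EGF receptors are known for their roles in neural stem cells, ERBB receptors and PDGFRα for the oligodendrocyte lineage, and the insulin and IGF1 receptors for growth in many cell types. The 10 receptors described here were *Fgfr1*, *Fgfr2* and *Fgfr3* (FGF receptors), *Egfr*, *Erbb3* and *Erbb4* (EGF and neuregulin receptors), *Ntrk2* (the BDNF receptor TrkB), *Igf1r* and *Insr* (the IGF1 and insulin receptors) and *Pdgfra* (a PDGF receptor). They were named as a list, by no rule on measured values, but with earlier results of these data known. Each had 1 row among the 32285 genes of the count tables.

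The study sequenced RNA of single nuclei from the V-SVZ of 8 mice at postnatal day 90, of which 4 were *Tsc2* wt/wt and the other 4 were *Tsc2* mut/mut. Each mouse gave 1 library. Mice of both groups were on a B6 background, carried Rosa26 CAG-tdTomato and Nestin-CRE-ERT2, and received 4-hydroxytamoxifen as pups. The mut/mut mice also carried the conditional *Tsc2* alleles (tm1.1Mjg). Recombination could occur where CRE had been active, and tdTomato-positive nuclei were sorted. Microglia-like and endothelial-like nuclei, which do not arise from neural stem cells, were among those recovered, and whether they carried tdTomato was not tested. *Tsc2* itself was at 14.6 ± 1.78 CPM (UMIs of the gene per 1000000 UMIs) in wt/wt and 14.8 ± 5.13 CPM in mut/mut nuclei (SD, n = 4 mice each), which checks nothing, since counts of 3′ ends need not show the deleted part.

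Libraries held 11182335 to 36773832 UMIs. Of 37881 barcodes with at least 300 genes, 3478 had at most 20% mitochondrial UMIs and are called nucleus-like (191 to 947 per mouse), and 34403 were mitochondria-rich. A nucleus was placed in a class when at least 3 of that class's 12 markers were detected and at least 2 times as many as of any other class. The gate took in 3065 nuclei and left 413 ungated, and 58 of the gated nuclei had exactly 3 markers. No receptor was a marker. In each fitted class its own marker list had the highest median sum, by margins that varied. The 12 astrocyte/NSC-like markers summed to a median of 25704 CPM in that class, and the endothelial-like markers to 9.29 CPM there. Astrocyte/NSC-like markers also summed to a median of 3578 CPM in microglia-like nuclei, whose own markers were at 14605 CPM. In oligodendrocyte progenitor-like nuclei they were at 6091 CPM, beside 22494 CPM for that class's own markers. The source of these counts was not tested. The mut/mut mouse 4 stood apart, because 152 of its 199 nucleus-like barcodes were choroid plexus-like. It had under 10 barcodes in the astrocyte/NSC-like, oligodendrocyte-like, microglia-like and ependymal-like classes, and the fits of those classes do not include it. Libraries shared at most 15 barcode sequences. Doublets were gated out at the sort and no doublet caller was run.

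In the GRCm38 build the receptor genes differ widely in extent, which bears on what a count in a nucleus can come from. *Erbb4* (chromosome 1, 68032186 to 69108059, minus strand) spans 1076 kb and holds 8 further genes on its strand. *Ntrk2* (chromosome 13, 58806569 to 59133970, plus strand) spans 327 kb, and *Erbb3* (chromosome 10, 128567523 to 128589652, minus strand) 22.1 kb. The GENCODE M21 model of *Fgfr2* (chromosome 7, 130162451 to 133123350, minus strand) runs over 2961 kb and covers 36 other genes on the same strand, whereas its RefSeq model covers 104 kb, so how *Fgfr2* counts were split from those genes is uncertain. *Igf1r* (chromosome 7, 67952827 to 68233668) overlaps no other gene on either strand.

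Promoters were read for the receptors with a start in the promoter set used (RefSeq, GRCm38.p6), since each of these receptors differs between classes below. *Fgfr1*, *Erbb3* and *Insr* were not in that set. Of the 10 receptors, 7 matched, with 8 starts. *Fgfr3*, *Egfr* and *Igf1r* are shown because their stretches lie upstream of the start in both annotations, at chr5:33721474-33721673 for *Fgfr3*, chr11:16751953-16752202 for *Egfr* and chr7:67952007-67952256 for *Igf1r*, each on the plus strand and each 5′ to 3′. Capitals mark GGGCGG or its reverse complement CCGCCC, the GC box that SP1 family factors bind.
Fgfr3: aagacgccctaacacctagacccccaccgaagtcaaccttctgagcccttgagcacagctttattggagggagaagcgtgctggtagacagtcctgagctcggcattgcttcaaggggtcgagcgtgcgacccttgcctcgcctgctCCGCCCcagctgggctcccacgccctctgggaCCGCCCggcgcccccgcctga
Egfr: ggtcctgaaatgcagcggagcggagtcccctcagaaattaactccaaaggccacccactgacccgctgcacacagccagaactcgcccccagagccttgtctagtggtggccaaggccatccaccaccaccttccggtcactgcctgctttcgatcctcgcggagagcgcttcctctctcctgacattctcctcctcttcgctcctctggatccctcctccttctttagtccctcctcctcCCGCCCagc
Igf1r: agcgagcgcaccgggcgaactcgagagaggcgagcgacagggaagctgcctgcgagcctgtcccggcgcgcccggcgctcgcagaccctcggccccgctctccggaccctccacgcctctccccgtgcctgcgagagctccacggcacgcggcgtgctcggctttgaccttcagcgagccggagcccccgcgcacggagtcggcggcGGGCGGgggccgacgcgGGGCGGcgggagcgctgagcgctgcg

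The GC box was in the 250 bases before 4 of the 8 starts (both of *Fgfr3*, and those of *Egfr* and *Igf1r*) and in 32.7% of the 32851 promoters of the same length. The GC content of the *Igf1r* window was 77.6% and that of *Egfr* 60.8%, beside a median of 52.4% over the promoters. The letters TTGGC, an NFI factor half-site, were found before *Egfr* and *Fgfr2* and in 41.5% of promoters, and TATAAA before none of the 8 starts and in 12.4% of promoters. All motifs were sought on both strands. These matches are descriptions of letters and not of binding.

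The first comparison asks in which cells of the V-SVZ each receptor was transcribed. Each class was set against the other gated nuclei of the same mice with edgeR's quasi-likelihood test and Benjamini-Hochberg adjustment over all genes tested, with the mouse as the replicate. Classes with at least 10 barcodes in only 1 mouse (oligodendrocyte progenitor-like) or 4 mice (inhibitory neuron or neuroblast-like and endothelial-like) were fitted with at least 4 barcodes per mouse, a choice made after seeing the data, with 6 mice each. The spread between mice was estimated with information shared over all genes. In these small classes the p-values rest mainly on that shared estimate, and less on a receptor's own spread over 6 mice. The other gated nuclei are mostly astrocyte/NSC-like, oligodendrocyte-like, microglia-like and choroid plexus-like, so a value "lower" here is lower than that mixture.

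In the astrocyte/NSC-like class, which joins astrocytes and neural stem cells because their markers overlap, 5 of the 8 receptors tested were higher (28.2% of all genes tested were) and 2 lower (36.2%). *Fgfr1*, *Fgfr2*, *Fgfr3*, *Egfr* and *Ntrk2* were the 5. *Egfr*, whose protein is known from activated stem cells and transit-amplifying progenitors, was at 333, 385 and 449 CPM in the lowest, median and highest of 7 mice. Among the other 7 classes that were fitted, the highest *Egfr* value of a mouse was 123 CPM, in the inhibitory neuron or neuroblast-like class, so the ranges did not overlap. The gate for dividing cells, with 6 barcodes, was too small to be fitted and had *Egfr* at 1514 CPM. The log2 fold change of *Egfr* in the astrocyte/NSC-like class was 5.10 (SE 0.39, adjusted p = 3.72e-08 by edgeR).

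*Fgfr3*, an FGF receptor known in astrocytes and their precursors, was also highest in this class, at 227, 246 and 323 CPM in the lowest, median and highest mouse (log2 fold change 4.88, SE 0.27, adjusted p = 1.64e-09). The ependymal-like mean was 35.1 ± 24.8 CPM (SD, n = 6), and each of the other classes averaged 16.9 CPM or less. Barcodes with 100 to 199 genes, which serve as the free-RNA reference, held *Fgfr3* at 42.9 ± 6.25 CPM (SD, n = 8 libraries). Mitochondrial UMIs count in that total, and their share in these barcodes was not measured. No class mean outside the astrocyte/NSC-like class was above that reference. By genotype, ependymal-like nuclei averaged 20.7 ± 18.9 CPM in wt/wt and 49.5 ± 23.8 CPM in mut/mut mice (SD, n = 3 each). The part of free RNA in these values was not tested.

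*Ntrk2*, which in astrocytes is known mainly as a form without the kinase domain, was at 857, 1134 and 1408 CPM in the lowest, median and highest mouse, a log2 fold change of 2.44 (SE 0.19, adjusted p = 4.15e-08). The counts are per gene and do not separate the kinase-bearing and truncated forms of the receptor. *Ntrk2* was at 711 ± 182 CPM in ependymal-like nuclei and 634 ± 251 CPM in oligodendrocyte progenitor-like nuclei. In choroid plexus-like nuclei it was at 170 ± 47.2 CPM, beside 173 ± 12.5 CPM in the free-RNA reference. *Fgfr3* in those nuclei was at 2.47 CPM, beside a reference of 42.9 CPM, so the receptors did not stand at 1 common ratio to the reference there, and the part of free RNA in the *Ntrk2* value was not tested.

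*Fgfr1*, a receptor for FGF2 known from stem cell culture, was at 266 ± 43.7 CPM in astrocyte/NSC-like nuclei (SD, n = 7) and 249 ± 103 CPM in ependymal-like nuclei (n = 6). Those 2 levels differed by less than the spread between mice. It was at 16.2 CPM or less on average in the other 6 classes, beside 14.5 ± 2.19 CPM in the free-RNA reference. *Fgfr1* was higher than in the other gated nuclei in both the astrocyte/NSC-like (log2 fold change 2.82, SE 0.25) and the ependymal-like class (0.87, SE 0.23). The ependymal-like call held in 16 of 18 alternatives, the others being no filter on low counts (0.54) and a limit of 10% mitochondrial UMIs (0.83).

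**Figure D1:**
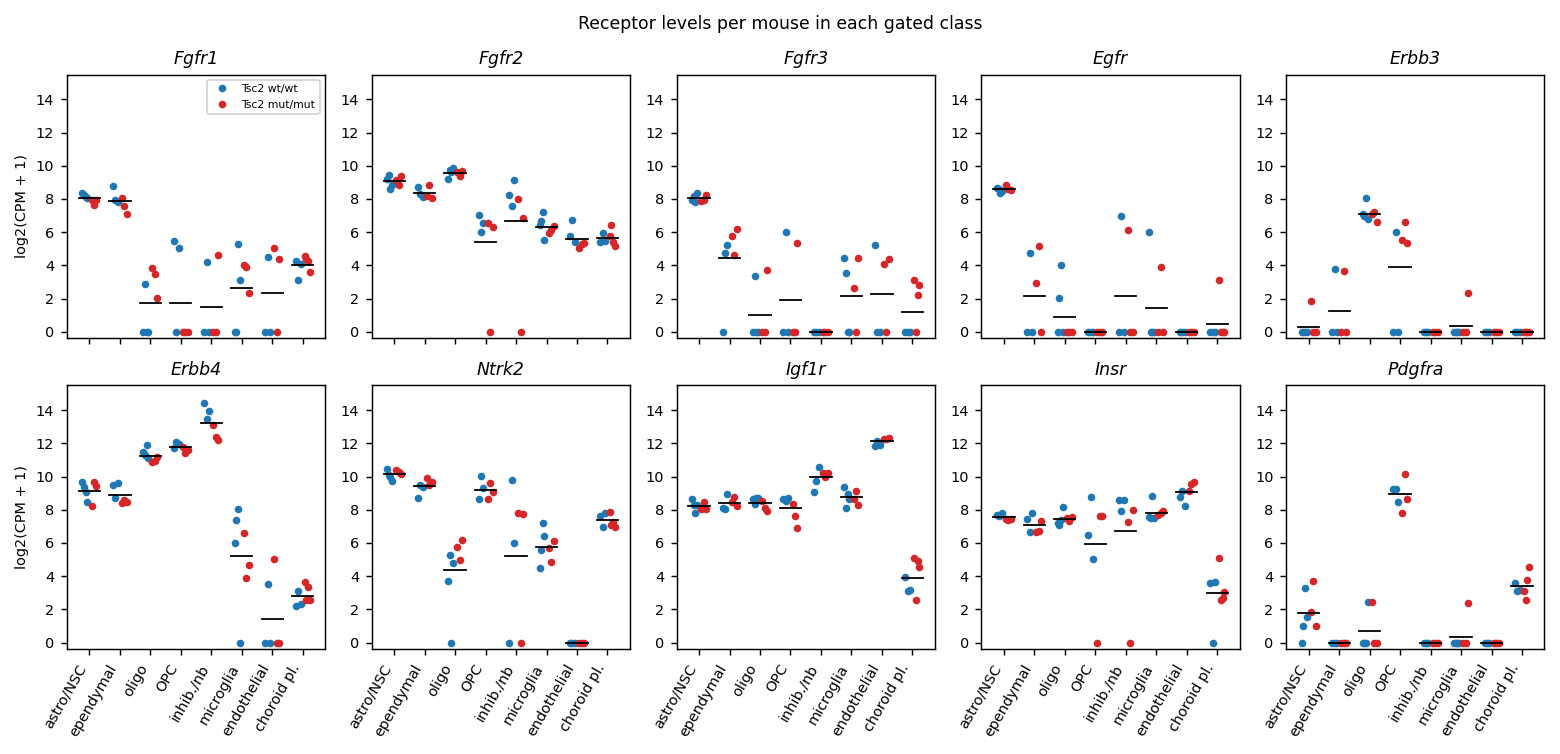
Level of each receptor, as log2(CPM + 1), in each marker-gated class (OPC, oligodendrocyte progenitor-like; inhib./nb, inhibitory neuron or neuroblast-like), 1 point per mouse (blue wt/wt, red mut/mut), with the mean of these log values as a line. Of the 8 classes plotted, Egfr and Fgfr3 stand highest in the astrocyte/NSC-like class, Erbb3 in the oligodendrocyte-like class, Pdgfra in the oligodendrocyte progenitor-like class and Igf1r in the endothelial-like class.

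*Erbb3*, a receptor for neuregulins whose own kinase is weak and which signals through a partner, was found almost entirely in the oligodendrocyte lineage. It was at 96.6, 136 and 261 CPM in the lowest, median and highest oligodendrocyte-like set of 7 mice, and at 40.6 ± 37.2 CPM in the progenitor-like class. In the other 6 classes the mean was at most 4.09 CPM. The log2 fold change in oligodendrocyte-like nuclei was 6.70 (SE 0.32, adjusted p = 3.81e-11), and the gene was too low to be tested in the other 7 classes.

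*Erbb4*, the neuregulin receptor with an active kinase that is known from interneurons and migrating neuroblasts, was high in 3 classes. It averaged 11314 ± 6519 CPM in inhibitory neuron or neuroblast-like nuclei (log2 fold change 3.56, SE 0.40, adjusted p = 3.04e-17), 3523 ± 581 CPM in oligodendrocyte progenitor-like nuclei (1.80, SE 0.22, adjusted p = 1.95e-15) and 2509 ± 662 CPM in oligodendrocyte-like nuclei (2.03, SE 0.16, adjusted p = 1.49e-08), all by edgeR's quasi-likelihood test. The inhibitory class ranged from 4721 to 21776 CPM over 6 mice, with the 3 wt/wt mice at 11607 CPM or more and the 3 mut/mut mice at 8760 CPM or less. These sets held as few as 4 nuclei (wt/wt mouse 1 and mut/mut mouse 2) and were under the size for a genotype fit. The difference was not tested. The share of all genes without overlap in these sets was not counted, so nothing particular to *Erbb4* is read from it. In astrocyte/NSC-like nuclei *Erbb4* was at 303 to 830 CPM and was lower than in the other gated nuclei (-1.01, SE 0.31, adjusted p = 0.0103). That direction depends on what the class is set against: with the other classes weighted equally in place of by size, the log2 fold change was 1.79. At 594 CPM its level was also above the 41.9 CPM of the free-RNA reference. A UMI of *Erbb4* was seen in 28.7% of astrocyte/NSC-like nuclei. *Fgfr2*, at 547 CPM in the same class, was seen in 73.8%, so the *Erbb4* count lay in fewer nuclei.

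In oligodendrocyte-like nuclei 3 of 9 receptors tested were higher (23.9% of all genes tested) and 4 lower (32.1%). The 3 were *Erbb3*, *Erbb4* and *Fgfr2*. *Erbb3*, at 1.28 CPM in the other gated nuclei, passed the filter on low counts through this class and could not have been called lower. *Fgfr2*, an FGF receptor known in oligodendrocytes and astrocytes, was at 776 ± 118 CPM there and 547 ± 118 CPM in the astrocyte/NSC-like class. The 4 lower were *Fgfr1*, *Fgfr3*, *Egfr* and *Ntrk2*, with log2 fold changes from -6.84 to -4.08. *Igf1r* and *Insr* did not pass the test, with log2 fold changes of -0.31 and 0.20.

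*Pdgfra*, the receptor by which PDGF-A acts on oligodendrocyte progenitors, was at 562 ± 332 CPM in the 6 oligodendrocyte progenitor-like sets, which ranged from 228 to 1161 CPM. Its mean was at most 10.5 CPM in each of the other 7 classes, and no UMI of it was seen in ependymal-like, inhibitory neuron or neuroblast-like or endothelial-like nuclei. The log2 fold change was 6.83 (SE 0.41, adjusted p = 9.93e-59, edgeR's quasi-likelihood test). That p-value rests mainly on the spread shared over all genes, and not on the 6 mice alone. *Pdgfra*, at 3.91 CPM in the other gated nuclei, passed the filter on low counts through this class and could not have been called lower. *Pdgfra* and *Erbb4* were the 2 receptors of 9 tested that were higher in this class (9.07% of all genes tested), and 5 were lower (23.2%). Of the 5, *Igf1r* (-0.86, SE 0.32) held its call in 10 of 17 alternatives, and lost it without mut/mut mouse 1, 2 or 3. The median log2 fold change over all genes tested in this class was -0.56. *Egfr* had no UMI in these 47 nuclei and was at least 9.30-fold lower, with 3 UMIs over the class as the floor.

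The insulin and IGF1 receptors were spread over more classes. *Igf1r* averaged 302 to 446 CPM in the astrocyte/NSC-like, oligodendrocyte-like, microglia-like, ependymal-like and oligodendrocyte progenitor-like classes, and *Insr* 144 to 238 CPM in the same classes. In endothelial-like nuclei *Igf1r* was at 3620, 4697 and 5114 CPM in the lowest, median and highest of 6 mice, above every other class, with a log2 fold change of 3.76 (SE 0.23, adjusted p = 2.72e-42, edgeR's quasi-likelihood test). *Insr* was at 570 ± 192 CPM there, a log2 fold change of 1.76 (SE 0.23). Of 8 receptors tested in this class, these 2 were higher (17.6% of all genes tested) and 6 lower (30.3%). *Ntrk2* had no UMI in the endothelial-like nuclei and was at least 69.4-fold lower, and *Egfr* at least 19.8-fold lower. *Flt1*, a VEGF receptor that marks vessels, was at 5891 CPM in these nuclei.

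*Igf1r* was at 1050 ± 337 CPM in the inhibitory neuron or neuroblast-like class (log2 fold change 0.92, SE 0.41, adjusted p = 0.0632, edgeR's quasi-likelihood test). It passed in 7 of 17 alternatives, among them without wt/wt mouse 1 (1.24) or mut/mut mouse 2 (1.04), and with library totals as the only scaling (1.28). In this class 1 of 8 receptors tested, *Erbb4*, was higher (8.0% of all genes tested) and 5 were lower (29.0%). The median log2 fold change over all genes tested in this class was -0.62. *Fgfr3* had no UMI there and was at least 8.35-fold lower. The call of *Fgfr2* as lower (-1.09, SE 0.43) held in 10 of 17 alternatives, and was lost without wt/wt mouse 2, mut/mut mouse 1 or mut/mut mouse 3 and under other scalings and the clusters (-0.49 by clusters).

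Microglia-like nuclei had 0 of 8 receptors higher (28.1% of all genes tested) and 6 lower (34.7%). *Igf1r* was at 446 ± 138 CPM and *Insr* at 238 ± 95.7 CPM, and these were the 2 that did not pass. In ependymal-like nuclei 1 of 8 receptors was higher, *Fgfr1* (24.3% of all genes tested), and 3 lower (27.6%), which were *Fgfr3*, *Egfr* and *Erbb4*. With the other classes weighted equally, *Fgfr3* and *Erbb4* were higher in the ependymal-like class, at log2 fold changes of 1.36 and 1.19 in place of -1.70 and -0.89. In choroid plexus-like nuclei 0 of 8 were higher (32.1%) and 8 lower (55.2%), with log2 fold changes from -7.43 (*Egfr*) to -1.59 (*Ntrk2*). The median over all genes tested in this class was also below 0, at -0.96. *Igf1r* and *Insr* were at 17.1 and 10.6 CPM in choroid plexus-like nuclei. With the other classes weighted equally *Ntrk2* was higher there (0.57) and *Fgfr1* did not pass (-0.38, adjusted p = 0.366 by edgeR).

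**Figure D2:**
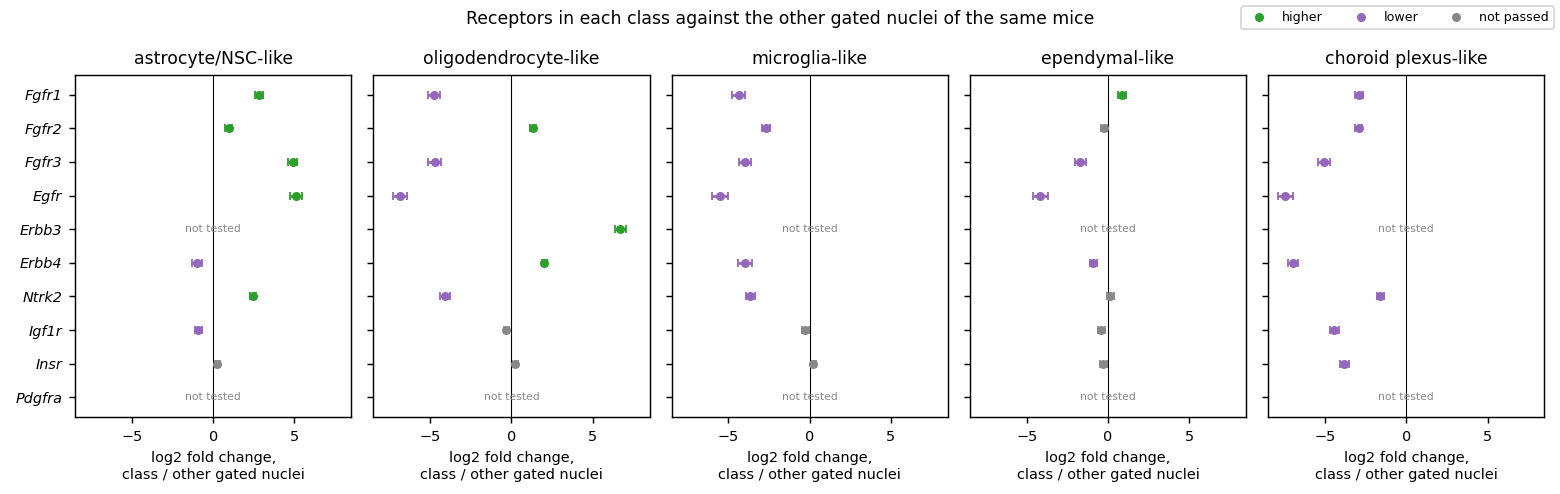
log2 fold change of each receptor in the 5 larger classes against the other gated nuclei of the same mice (edgeR, bars are the SE). Green points were called higher, purple points lower and grey points did not pass. The 8 receptors tested in choroid plexus-like nuclei lie below 0.

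When each receptor's classes with at least 10 barcodes were ranked by level, 40 pairs of neighbouring classes arose. None passed an exact paired permutation test over mice after adjustment over the 40 (lowest adjusted p = 0.114). The test's smallest possible p was 0.0156 with 7 mice, 0.03125 with 6 and 0.0625 with 5. No single pair could therefore pass on its own after adjustment, and no conclusion is drawn from the test. The order of neighbours is a description. For *Fgfr1* the astrocyte/NSC-like level was above the ependymal-like one in 4 of 6 mice, and the ependymal-like level above the choroid plexus-like one in 5 of 5.

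For counts per nucleus, each nucleus with at least 1000 UMIs was thinned to 1000 so that depth was equal. Nuclei with fewer were left out, 80 in the astrocyte/NSC-like and 103 in the microglia-like class. Of 1071 thinned astrocyte/NSC-like nuclei, 29.7% had a UMI of *Egfr* (95% exact binomial interval 27.0% to 32.5%). The share was 0.465% in microglia-like nuclei, which serve as the class that should lack it. Before thinning, over all nuclei of the 2 classes, the shares were 59.9% and 0.375%, at median depths of 3305 and 1571 UMIs. The *Egfr* count was thus spread over many nuclei of the astrocyte/NSC-like class. *Ntrk2* was seen in 61.6% of that class, and in 13.6% of choroid plexus-like nuclei.

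*Erbb3* had a UMI in 12.2% of 502 thinned oligodendrocyte-like nuclei (9.42% to 15.3%) and in 0 of 1071 astrocyte/NSC-like nuclei, which allows a share of up to 0.280% of nuclei with a UMI at this depth (exact binomial upper bound 0.344%) and sets no limit on nuclei that express the gene. *Erbb4* was in 76.3% of oligodendrocyte-like, 97.7% of oligodendrocyte progenitor-like and 91.9% of inhibitory neuron or neuroblast-like nuclei, against 2.33% of microglia-like nuclei. In the astrocyte/NSC-like class it was in 21.8%. *Igf1r* was in 96.9% of 65 endothelial-like nuclei and 66.2% of 74 inhibitory neuron or neuroblast-like nuclei, but 4.38% of choroid plexus-like nuclei. *Pdgfra* was in 29.5% of 44 oligodendrocyte progenitor-like nuclei (16.8% to 45.2%) and 0.280% of astrocyte/NSC-like nuclei. Intervals and floors cover counting error only.

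A thinned astrocyte/NSC-like nucleus had a UMI of 2.44 of the 10 receptors on average, an oligodendrocyte-like nucleus of 1.94 and a choroid plexus-like nucleus of 0.260. No receptor was seen in 76.2% of choroid plexus-like, 50.2% of microglia-like and 4.67% of astrocyte/NSC-like nuclei. A nucleus of the astrocyte/NSC-like class had 3 or more receptors in 45.5% of cases.

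**Figure D3:**
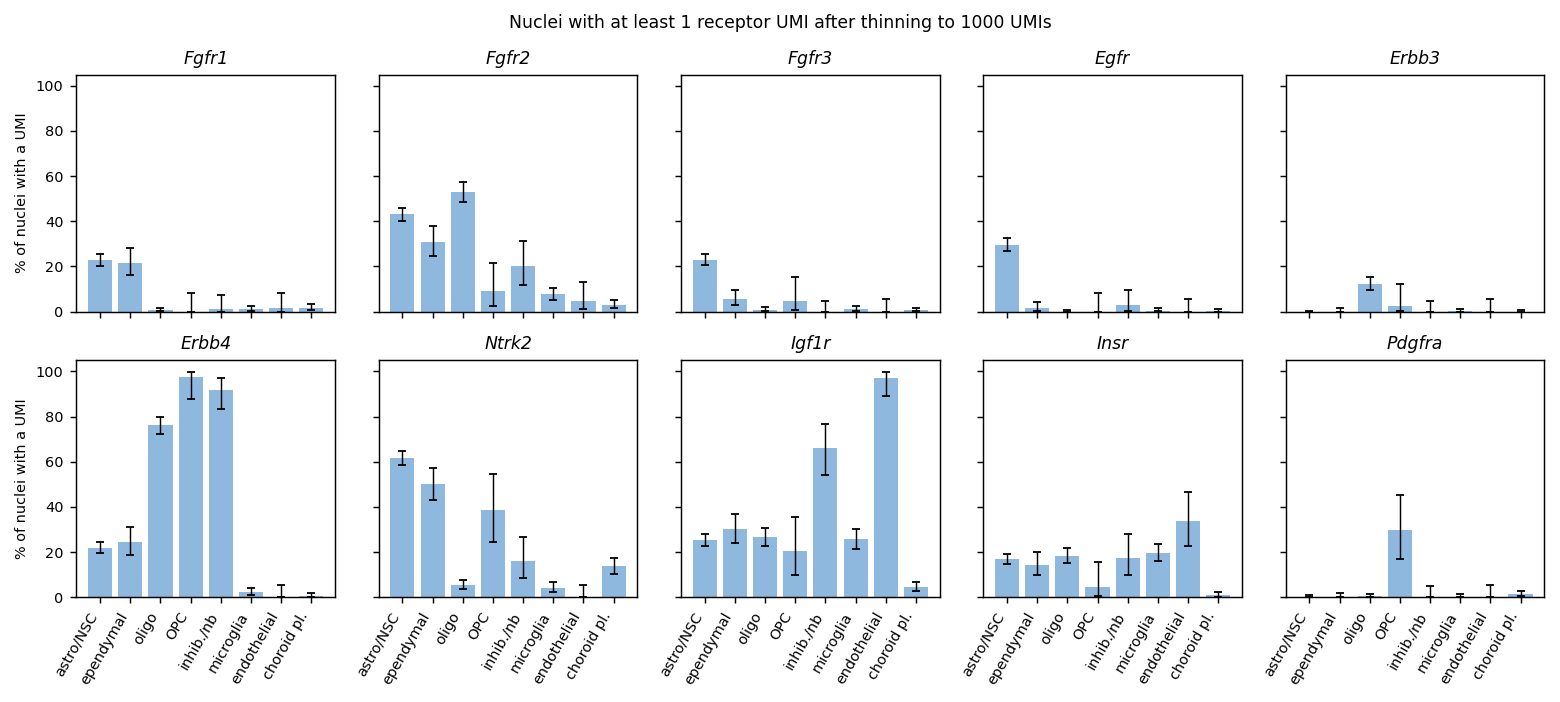
Share of nuclei (%) with at least 1 UMI of each receptor after thinning to 1000 UMIs, by class, with 95% exact binomial intervals that cover counting error only. Nuclei with fewer than 1000 UMIs were left out. Erbb4 reaches 97.7% in oligodendrocyte progenitor-like nuclei and Igf1r 96.9% in endothelial-like nuclei.

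Over the 8 class means, the receptors most alike to each other were *Igf1r* and *Insr* (Pearson r = 0.91 over 8 classes, a description in which the points share libraries and differ in depth). These means used only mice with at least 10 barcodes of the class. The oligodendrocyte progenitor-like mean, where *Pdgfra* is highest, is therefore 1 mouse with 16 barcodes. The inhibitory neuron or neuroblast-like and endothelial-like means are of 4 mice each. Among 14023 genes compared, the 2 most like *Erbb3* were *Sox10*, a transcription factor of the oligodendrocyte lineage (r = 0.99), and *Bcas1*, a gene of early myelinating oligodendrocytes (r = 0.97). The 2 most like *Egfr* were *St6galnac5* and *Gm26862* (r = 0.99 each). For *Fgfr3* they were *Sorcs2* (r = 0.97) and *AW011738* (r = 0.96), and for *Erbb4* *Ctnna2* (r = 0.99) and *Gpr137c* (r = 0.98). For *Pdgfra* they were *Slc27a3* and *Misp* (r = 0.98 each).

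The molecules around the receptors were described from a list of 99 genes in 6 groups: ligands, other receptor kinases and co-receptors, adaptors, the PI3K group, negative regulators, and the TSC and mTOR complexes. In the astrocyte/NSC-like class 68 were tested, 28 were higher and 23 lower, where 28.2% and 36.2% of all genes tested were, and their median log2 fold change was 0.16, beside -0.08 over all genes tested. Of 12 ligands tested 6 were higher and 4 lower, of 10 other receptors 5 and 5, and of 12 adaptors 5 and 6. Of 11 genes of the PI3K group 3 were higher and 3 lower, of 13 negative regulators 6 and 4, and of 10 genes of the TSC and mTOR group 3 and 1.

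Among the ligands, *Fgf1* was at 132 CPM in astrocyte/NSC-like nuclei and 21.3 CPM in the other gated nuclei (log2 fold change 2.60, SE 0.23), and *Pdgfc* at 95.4 and 19.7 CPM (2.21, SE 0.19). *Pdgfb*, the ligand that recruits pericytes, was at 0.961 and 69.4 CPM (-6.21, SE 0.40), and in pooled nuclei was at 368 CPM in the endothelial-like and 166 CPM in the microglia-like class. *Pdgfrb*, the receptor for PDGF-B that is known from pericytes, was at 70.2 and 1.14 CPM (5.51, SE 0.34). The mural or fibroblast-like gate, whose cells also have it, took in 0 nuclei, and its marker list summed to a median of 176 CPM in the astrocyte/NSC-like class. The part of such cells in the *Pdgfrb* level was not tested. *Flt1* (-8.89, SE 0.39) and *Csf1r*, the CSF1 receptor of microglia (-5.71, SE 0.26), were lower in the astrocyte/NSC-like class.

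*Shc3*, a neural adaptor of receptor kinases, was at 235 and 15.1 CPM (4.12, SE 0.22), whereas *Grb14*, an adaptor that inhibits the insulin receptor, was at 7.96 and 179 CPM (-4.46, SE 0.29) and was at 434 CPM in oligodendrocyte-like nuclei. *Lrig1*, a negative regulator of ERBB receptors, was at 167 and 16.3 CPM (3.50, SE 0.23), and *Spry2*, an inhibitor of FGF signalling, and *Spred2*, an inhibitor of RAS signalling, had log2 fold changes of 2.81 (SE 0.21) and 1.60 (SE 0.17). *Pik3cd*, the leukocyte catalytic subunit of PI3K, was at 1.42 CPM in the astrocyte/NSC-like class and 332 CPM in microglia-like nuclei. *Ptpn11*, a phosphatase that transmits receptor signals, was lower (-1.08, SE 0.16), and the kinase *Akt2* was higher (1.80, SE 0.23). *Mtor* was at 84.7 and 41.9 CPM (0.99, SE 0.17), with *Rps6kb1*, which encodes its substrate S6 kinase, at a log2 fold change of 0.69 (SE 0.15) and *Rheb*, its activator, at -0.80 (SE 0.22).

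In oligodendrocyte-like nuclei 16 of the 52 list genes tested were higher and 20 lower, where 23.9% and 32.1% of all genes tested were. In microglia-like nuclei 20 and 18 of 51 were (28.1% and 34.7% of all genes), in ependymal-like nuclei 8 and 20 of 49 (24.3% and 27.6%) and in choroid plexus-like nuclei 7 and 41 of 53 (32.1% and 55.2%). The counts were 7 and 6 of 46 in oligodendrocyte progenitor-like nuclei (9.07% and 23.2% of all genes), 4 and 16 of 50 in inhibitory neuron or neuroblast-like nuclei (8.0% and 29.0%) and 15 and 18 of 54 in endothelial-like nuclei (17.6% and 30.3%). Nothing particular to the list is read from these counts.

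The second comparison asks whether receptor transcripts differed with *Tsc2* genotype. No receptor tested was called between mut/mut and wt/wt mice in any of the 7 sets, by edgeR's quasi-likelihood test or by DESeq2. Low counts left some receptors untested. In choroid plexus-like nuclei only *Fgfr2* and *Ntrk2* were tested, and in microglia-like nuclei only *Fgfr2*, *Erbb4*, *Igf1r* and *Insr*. In oligodendrocyte-like nuclei *Fgfr1*, *Fgfr3*, *Egfr*, *Ntrk2* and *Pdgfra* were not tested, and in ependymal-like nuclei *Fgfr3*, *Egfr*, *Erbb3* and *Pdgfra* were not. Of all genes tested, 0% were called in nucleus-like sums, 0.271% in mitochondria-rich sums, 0.0149% in astrocyte/NSC-like, 0.0269% in oligodendrocyte-like, 0.0722% in microglia-like, 0% in ependymal-like and 1.93% in choroid plexus-like nuclei. At an unadjusted p under 0.05 there were 169 genes in nucleus-like sums and 157 in ependymal-like nuclei, the 2 sets with no call. In simulated counts of the astrocyte/NSC-like comparison, 57% of genes changed 2-fold and 99% of genes changed 4-fold were recovered, and in the nucleus-like comparison 0% and 26%. Of genes changed 2-fold, 32% were recovered in oligodendrocyte-like, 40% in microglia-like and 40% in ependymal-like nuclei. The share was 70% in choroid plexus-like nuclei and 72% in mitochondria-rich sums. In sums over all nuclei, fewer cells of a type and less RNA per cell cannot be told apart.

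*Fgfr1* in astrocyte/NSC-like nuclei was at 330, 304, 278 and 266 CPM in wt/wt mice 1 to 4 and at 240.5, 199 and 243 CPM in mut/mut mice 1 to 3. The groups did not overlap. The 5 astrocyte/NSC-like nuclei of mut/mut mouse 4, which was not included, gave 341 CPM from 5 UMIs. The log2 fold change was -0.38 (SE 0.15, adjusted p = 0.641, edgeR's quasi-likelihood test), and an exact two-sided permutation test gave p = 0.0286, the smallest that 4 against 3 mice allow.

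*Insr* in the same nuclei was at 205, 196, 204 and 219.9 CPM in wt/wt mice 1 to 4 and at 177, 163 and 174 CPM in mut/mut mice 1 to 3, also without overlap (exact permutation p = 0.0286). In mitochondria-rich barcodes the order was the opposite, at 10.9, 11.8, 6.54 and 7.69 CPM in wt/wt and 15.3, 15.2, 14.1 and 13.5 CPM in mut/mut mice (log2 fold change 0.54, SE 0.18, adjusted p = 0.191 by edgeR). The free-RNA reference of *Insr* was 8.56 ± 1.87 CPM, with a highest library of 9.86 CPM, so the 4 mut/mut values lay above it and the wt/wt values on both sides of its mean. Over the 70 exact permutation tests of 10 receptors in 7 sets, 4 had p below 0.05, 5 had groups without overlap, and the lowest adjusted p was 0.500. The fourth of these was *Pdgfra* in mitochondria-rich barcodes, at 4.14 ± 0.295 and 5.58 ± 0.590 CPM. None of the 70 tests could go below 0.0286, so no single test could pass after adjustment over them. The share of all genes without overlap in these sets was not counted, so nothing particular to the receptors is read from these counts.

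*Erbb4* in ependymal-like nuclei was at 707, 419 and 774 CPM in wt/wt mice 1 to 3 and 338, 379 and 353 CPM in mut/mut mice 1 to 3. The ranges did not overlap, with a log2 fold change of -0.76 (SE 0.25, adjusted p = 0.457 by edgeR). Without wt/wt mouse 2 it was -1.0 with an adjusted p of 0.0329. The 6 ependymal-like nuclei of wt/wt mouse 4, too few for the fit, gave 242 CPM. An exact permutation test of 3 against 3 mice cannot go below 0.100, the value reached here. *Ntrk2* in the same nuclei had a log2 fold change of 0.54 (SE 0.24, adjusted p = 0.541).

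*Erbb4* in oligodendrocyte-like nuclei was at 2885, 2509, 3801 and 2210 CPM in wt/wt and 1884, 1958 and 2316 CPM in mut/mut mice, and the groups overlapped (log2 fold change -0.44, SE 0.18, adjusted p = 0.499 by edgeR). *Fgfr3* and *Igf1r* in mitochondria-rich barcodes were the other receptors with an unadjusted p under 0.05, at log2 fold changes of -0.36 (adjusted p = 0.204) and 0.31 (adjusted p = 0.309). *Egfr* in astrocyte/NSC-like nuclei was at 333 to 404.5 CPM in wt/wt and 375 to 449 CPM in mut/mut mice, a log2 fold change of 0.09 (SE 0.14).

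**Figure D4:**
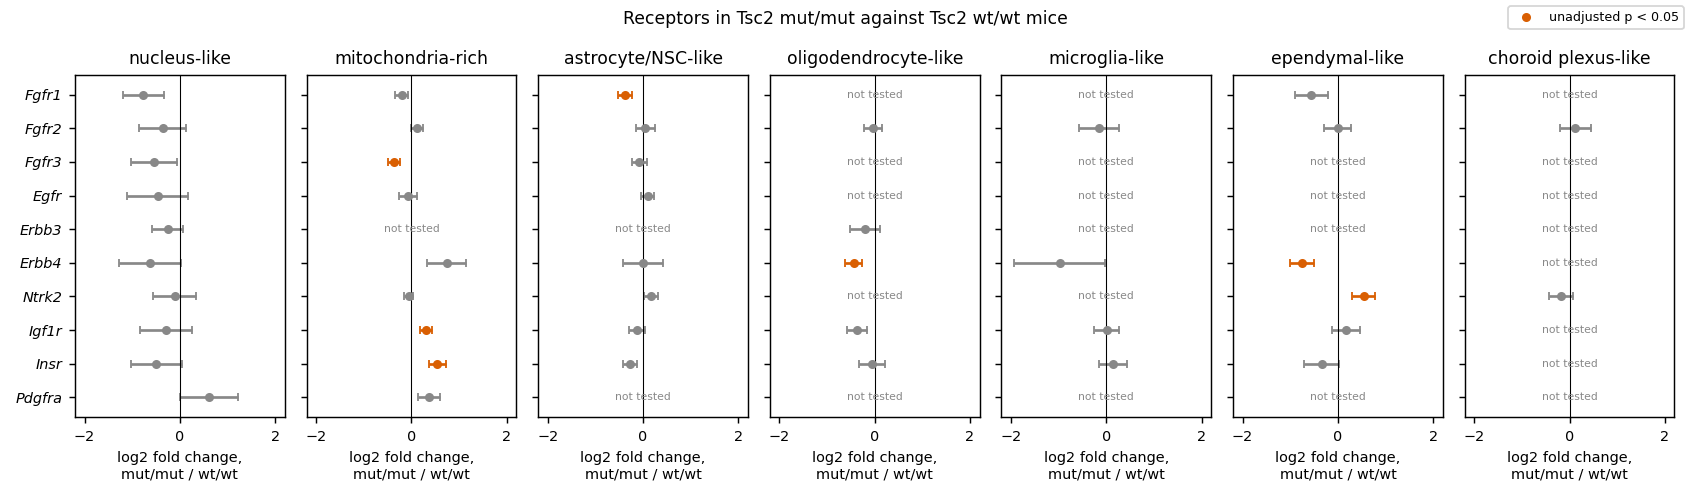
log2 fold change of each receptor, mut/mut against wt/wt, in 7 sets of barcodes (edgeR, bars are the SE). Orange points had an unadjusted p under 0.05, and none passed after adjustment over all genes tested. Receptors too low to be tested in a set are marked as not tested.

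Whether the genotype moved a receptor's difference between classes was tested for the astrocyte/NSC-like class against the other gated nuclei of each mouse, by an exact permutation of genotype over 4 and 3 mice. None of the 10 receptors passed, and the lowest adjusted p was 0.980. With 4 against 3 mice this permutation test cannot go below p = 0.0286. No single receptor could therefore pass after adjustment over the 10, and no conclusion is drawn from the test. In nucleus-like sums the median log2 fold change of the 10 receptors was -0.41, beside 0.04 over all genes tested. Mut/mut mouse 4, with its choroid plexus-like nuclei, had *Igf1r* at 41.7 CPM and *Fgfr3* at 10.4 CPM in those sums, against at least 323 and 78.1 CPM in the other 7 mice. Without choroid plexus-like barcodes, 0 receptors were called and 1 of 9698 genes was. Of the 99 genes of the signalling list, 0 were called in any of the 7 sets.

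The third comparison sets nucleus-like against mitochondria-rich barcodes of the same library. Of 10 receptors, 7 were higher in nucleus-like barcodes (38.6% of all genes tested) and 1 lower (40.2%), with log2 fold changes from 0.94 (*Fgfr1*) to 2.81 (*Erbb4*, SE 0.40) among the 7. *Fgfr3* was the 1 lower (-0.87, SE 0.25), and *Ntrk2* (-0.16) and *Pdgfra* (-0.18) did not pass, but with library totals as the only scaling these became 0.67, 1.37 and 1.30. Under that scaling the median over all genes moved from -0.06 to 1.45, and 84.6% of calls were higher in place of 49.0%. Relative to that median, *Fgfr3* lay below it under both scalings and *Erbb4* above it. In CPM, *Fgfr3* was at 99.5 in nucleus-like and 57.6 in mitochondria-rich barcodes on average. It was higher in nucleus-like barcodes in 7 of 8 mice, the exception being mut/mut mouse 4. CPM counts mitochondrial UMIs in the total, which were 7.35% of UMIs in nucleus-like and 47.9% in mitochondria-rich barcodes. The higher CPM of *Fgfr3* therefore does not show that it was higher among the other UMIs.

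**Figure D5:**
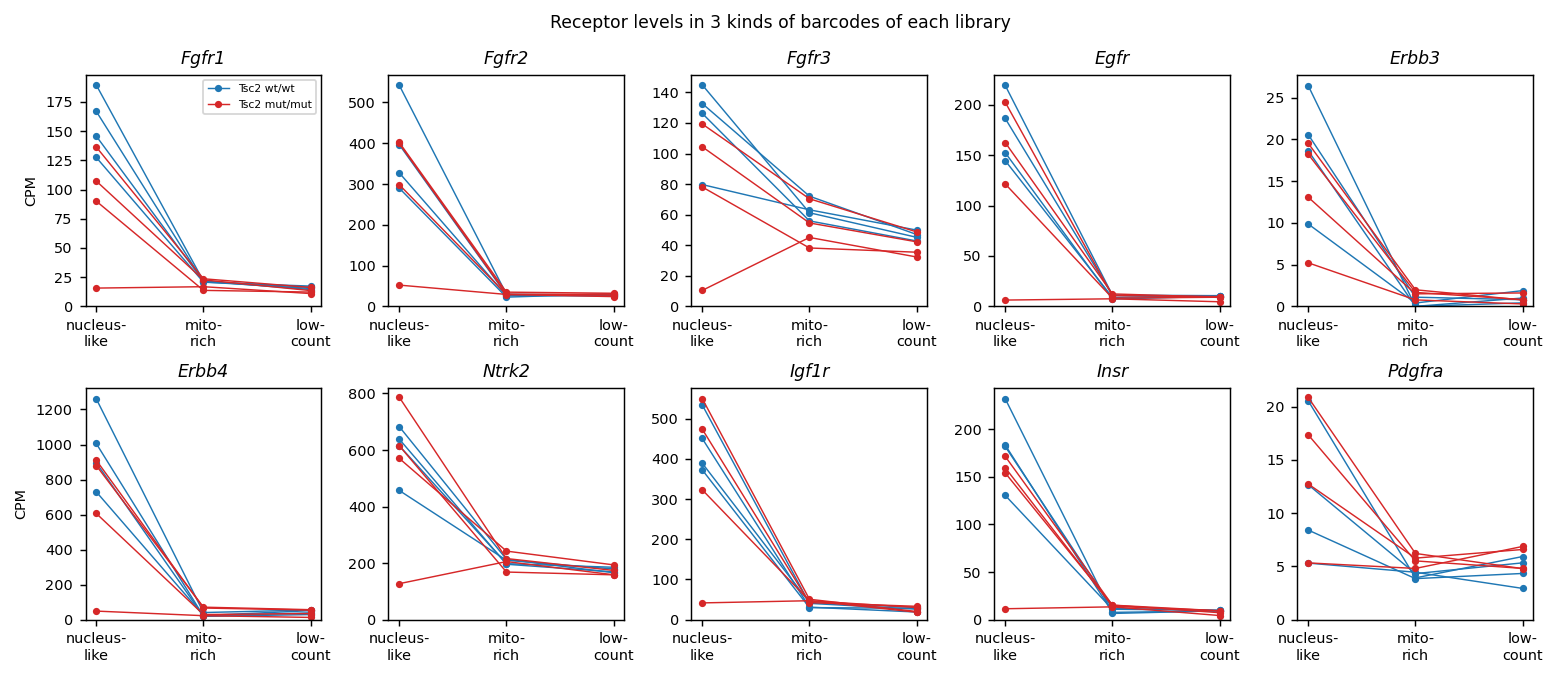
Level of each receptor (CPM, linear axes that differ between panels) in nucleus-like, mitochondria-rich and low-count (100 to 199 genes) barcodes. Each line joins the 3 values of 1 mouse (blue wt/wt, red mut/mut). The nucleus-like mean is above that of low-count barcodes for each receptor, with the smallest ratio for Fgfr3 (99.5 against 42.9 CPM). CPM is over all UMIs, mitochondrial ones included.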

How the data were processed

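Nuclei from the V-SVZ of 8 mice were sequenced with 10x 3′ v3.1 chemistry. The authors made the deposited UMI count matrices with Cell Ranger 7.0.1 on GRCm38, returning 60000 barcodes per library, and the submitters' processing notes name Seurat 4. Whether intronic reads were counted is not given in the sources used here. From the counts, barcodes were kept and gated as the report states, summed per mouse and class, and divided by total UMIs for CPM. Sets needed 10 barcodes per mouse in at least 3 mice per group. Tests used edgeR 4.0.16 (TMM, filterByExpr, robust quasi-likelihood) in R 4.3.3, with Benjamini-Hochberg adjustment over all genes tested and a threshold of 0.05. DESeq2 1.42.0 was an alternative. Exact permutation tests were two-sided. Those between genotypes within a set used CPM, and those of class order and of genotype by class used log2 of CPM plus 1. Exact binomial and Poisson intervals came from scipy 1.17.1. The fits were tested on simulated counts with 200 changed genes. Leiden clustering (leidenalg 0.10.2) put 98.2% of gated barcodes in the class of the gate. Alternatives covered normalization, filters, gate limits, left-out mice and a replicate block. Equal replicate numbers in both genotypes are not said in the labels to mark a shared litter or day. The receptors, marker lists, signalling list and class comparisons were chosen with earlier results of these data known. Named genes of the signalling list are, per group, up to 3 with the lowest adjusted p in the astrocyte/NSC-like comparison, and the genes of that list named in observations were chosen after their values were seen. Some genes that this rule names are not reported here. Alike genes are the 2 highest by Pearson r over the class means among genes reaching 10 CPM in a class, markers excluded.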

Additional observations from a re-analysis of the deposited data

Results flagged for a closer look

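Among 62 groups of 4 mice tested for 1 mouse far from the other 3, 4 were flagged, and chance flags about 1 in 20 such groups. *Insr* in nucleus-like sums of mut/mut mice was 11.48 CPM in mouse 4 and 154 to 172 CPM in the other 3; this is the library whose nucleus-like barcodes were mostly choroid plexus-like, a class in which *Insr* averaged 10.6 CPM. *Fgfr2* in mitochondria-rich barcodes of mut/mut mice was 34.91 CPM in mouse 3 and 28.9 to 29.9 CPM in the others. *Igf1r* in oligodendrocyte-like nuclei of wt/wt mice was 327.9 CPM in mouse 2 and 407 to 422 CPM in the others. *Insr* in microglia-like nuclei of wt/wt mice was 448.9 CPM in mouse 3 and 177 to 190 CPM in the others.

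The gate for dividing cells took in 6 barcodes of 4 mice, too few for any comparison in the report. *Egfr* was at 1514 CPM in them (43 UMIs of 28409, exact Poisson interval 1095 to 2039 CPM), beside 389 CPM in pooled astrocyte/NSC-like nuclei, the highest of the 5 larger classes. *Igf1r* was at 1126 CPM (770 to 1590 CPM), beside 385 CPM in microglia-like nuclei, the highest of those 5, and 1139 and 4516 CPM in inhibitory neuron or neuroblast-like and endothelial-like nuclei. These intervals cover counting error only, the values come from cells of few mice, and no test was made.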

How the results depend on the processing

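Each result was recomputed under alternatives of normalization, filter, gate, left-out mice and replicate block. The number of receptors called changed by over 1.5 times in 2 cases: ependymal-like nuclei gave 1 receptor called between genotypes without wt/wt mouse 2 (range 0 to 1 over left-out mice, with 72 genes called in place of 0), and oligodendrocyte-like nuclei gave 4 of 6 tested receptors called with a maximum of 30% mitochondrial UMIs, in place of 7 of 9. With the other classes weighted equally, the log2 fold change turned for *Erbb4* (1.79) and *Igf1r* (0.70) in astrocyte/NSC-like, *Igf1r* (0.93) in oligodendrocyte-like, *Igf1r* (0.88) in microglia-like, *Ntrk2* (0.57) in choroid plexus-like and *Fgfr2* (0.53), *Fgfr3* (1.36), *Egfr* (0.13), *Erbb4* (1.19), *Igf1r* (0.84) and *Insr* (0.34) in ependymal-like nuclei; the comparison group differs by construction. Other turns were of values near 0: *Insr* in oligodendrocyte-like nuclei with no filter (-0.046), in microglia-like nuclei with DESeq2 (-0.13), no filter (-0.0051) and a 10% mitochondrial limit (-0.024), in ependymal-like nuclei by clusters (0.014), and in inhibitory nuclei with DESeq2 (-0.030) and no filter (-0.055); *Ntrk2* in ependymal-like nuclei with upper-quartile factors (-0.039), no filter (-0.19) and the 10% limit (-0.15), and in oligodendrocyte progenitor-like nuclei with upper-quartile factors (0.0026). *Egfr* in inhibitory nuclei became 0.39 by clusters; the cause was not tested. Between barcode kinds, the 10% limit gave *Ntrk2* 0.17 and *Pdgfra* 0.23, and library totals *Fgfr3* 0.67, *Ntrk2* 1.37 and *Pdgfra* 1.30. Genes called between genotypes ranged, over all alternatives but left-out mice, from 3 to 233 in mitochondria-rich (29 in the report), 0 to 75 in astrocyte/NSC-like (1), 0 to 52 in oligodendrocyte-like (1), 0 to 11 in microglia-like (2), 0 to 18 in ependymal-like (0), 16 to 147 in choroid plexus-like (57) and 0 to 1 in nucleus-like sums (0). *Igf1r* in oligodendrocyte progenitor-like nuclei lost its call in 7 of 17 alternatives (lowest size -0.59 with upper-quartile factors), and *Insr* in astrocyte/NSC-like nuclei gained one without wt/wt mouse 3 (log2 fold change, astrocyte/NSC-like class against other gated nuclei, 0.42). Deviations of same-numbered mice correlated at -0.72 to 0.50 in nucleus-like sums, which cannot tell whether the numbers mark a shared litter or day. With the replicate block, 0 receptors were called in each of the 7 sets and 18 genes in mitochondria-rich and 78 in choroid plexus-like sets. Small classes and depth limit which receptors could be tested.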

Other observations

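The ligands and other receptor kinases had patterns of their own, given as pooled CPM per class with no test. *Nrg3*, a ligand of ERBB4, was at 1859 CPM in inhibitory neuron or neuroblast-like and 1793 CPM in oligodendrocyte progenitor-like nuclei, which are also the 2 classes with the most *Erbb4*. *Nrg1*, a ligand of ERBB3 and ERBB4, was at 789 CPM in ependymal-like nuclei, 711 CPM in inhibitory neuron or neuroblast-like nuclei and 5.85 CPM in oligodendrocyte-like nuclei. In the 6 dividing barcodes *Nrg1* was at 2077 CPM (1581 to 2679 CPM, exact Poisson interval for counting error). *Pdgfa*, the ligand of PDGFRα, was at 154 CPM in ependymal-like, 50.9 CPM in choroid plexus-like and 42.4 CPM in oligodendrocyte-like nuclei. *Mertk*, a receptor kinase for the uptake of dying cells, was at 2336 CPM in microglia-like and 1238 CPM in astrocyte/NSC-like nuclei. *Ntrk3*, the NT-3 receptor, was at 717 CPM in oligodendrocyte progenitor-like and 146 CPM in astrocyte/NSC-like nuclei.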
